A study of Homo sapiens with 6 samples.

Results

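The genes described here encode the machinery that brings secretory and membrane proteins to the endoplasmic reticulum (ER) and into or across its membrane. They are 34 of the 58825 genes in the deposited table, taken by gene symbol: 6 protein subunits of the signal recognition particle (SRP), 2 of its receptor, 4 of the SEC61 channel, SEC62 and SEC63, the 4 subunits of the translocon-associated protein complex (TRAP), TRAM1 and TRAM2, 5 of signal peptidase and 9 of the ER membrane protein complex (EMC). Each symbol matched 1 gene, and all 34 passed the filter on low counts.

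The libraries came from PANC-1, a human cell line from a ductal carcinoma of the pancreas, grown in DMEM with fetal bovine serum. In 3 libraries the cells had received CMR, a compound not named further in the labels, at 8 µM for 48 h, and 3 libraries are controls whose own treatment is not stated. RNA was selected for poly(A). No label tells whether the libraries of a group are separate cultures: p-values then measure only the spread between them, which may be technical. Totals ran from 66460535 to 70129221 counts with CMR and from 51147268 to 63811430 counts in control.

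All 5 ductal epithelial markers checked were detected, and their summed level was 151 to 278 FPKM with CMR and 610 to 707 FPKM in control. Most of that sum came from KRT8, KRT18 and KRT19. KRT7 was low, with 0.927, 0.545 and 0.519 FPKM with CMR and 1.27, 1.145 and 1.137 FPKM in control. KRT7, KRT8, KRT18 and KRT19 were called lower, while EPCAM was not called, with means of 8.01 FPKM with CMR and 7.31 FPKM in control. FPKM is the fragment count scaled to gene length and library size. Of 6 adipocyte markers, listed because the protocol mentions adipose tissue, 1 reached 1 FPKM (PLIN4), and they summed to 0.988 to 1.81 FPKM with CMR and 0.471 to 0.608 FPKM in control. Of 4 leukocyte markers only CD68 reached 1 FPKM (summed level 24.5 to 30.9 FPKM with CMR and 26.6 to 33.1 FPKM in control), with PTPRC at 4 counts or fewer in each library and CD3E at 0. Endothelial, fibroblast and acinar markers summed to at most 0.164 FPKM with CMR and 0.275 FPKM in control, and all 3 islet markers were at 0. The part of the lower keratin genes in the results was not tested. In bulk RNA, fewer cells of a type and less RNA per cell cannot be told apart.

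Most secreted and membrane proteins carry a hydrophobic signal that SRP binds as it leaves the ribosome. SRP docks at its receptor, the ribosome passes to the SEC61 channel, and the chain is threaded through or released sideways into the membrane while signal peptidase cuts the signal off. TRAP, TRAM proteins and the SEC62-SEC63 pair assist particular substrates, and the EMC inserts membrane segments that SEC61 handles poorly. Genes of this route are known targets of the unfolded protein response, through the transcription factors XBP1 and ATF6.

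CMR libraries held more mRNA for most of this machinery, relative to the other genes of each library. Amounts per cell were not measured. Of the 34 genes, 23 were called higher (67.6%) and 1 lower (2.94%), against 20.5% higher and 18.1% lower of the 19200 genes tested, by edgeR's quasi-likelihood test at a Benjamini-Hochberg adjusted p under 0.05. In either direction 70.6% of the 34 and 38.6% of all genes were called. Under upper-quartile scaling 22 of the 34 were higher and 1 lower, while of all genes 3250 were higher and 4324 lower, against 3928 and 3476 with the main TMM scaling. A change of at least 2-fold upward was called in 12 of the 34, where 9.87% of all genes had one, and a change of at least 2-fold downward in 1, where 8.55% had one. The median log2 fold change of the 34 genes was 0.81, and that of all tested genes was -0.01. The ranges of normalised counts of both groups did not overlap in 27 of the 34 genes, against 53.9% of all tested genes. The largest rise was in SRPRB of the SRP receptor (5.03-fold), the only fall in TRAM2 (2.06-fold lower). The 10 genes that were not called included 5 of the 9 EMC subunits and both subunits of the SRP Alu domain.

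**Figure D1:**
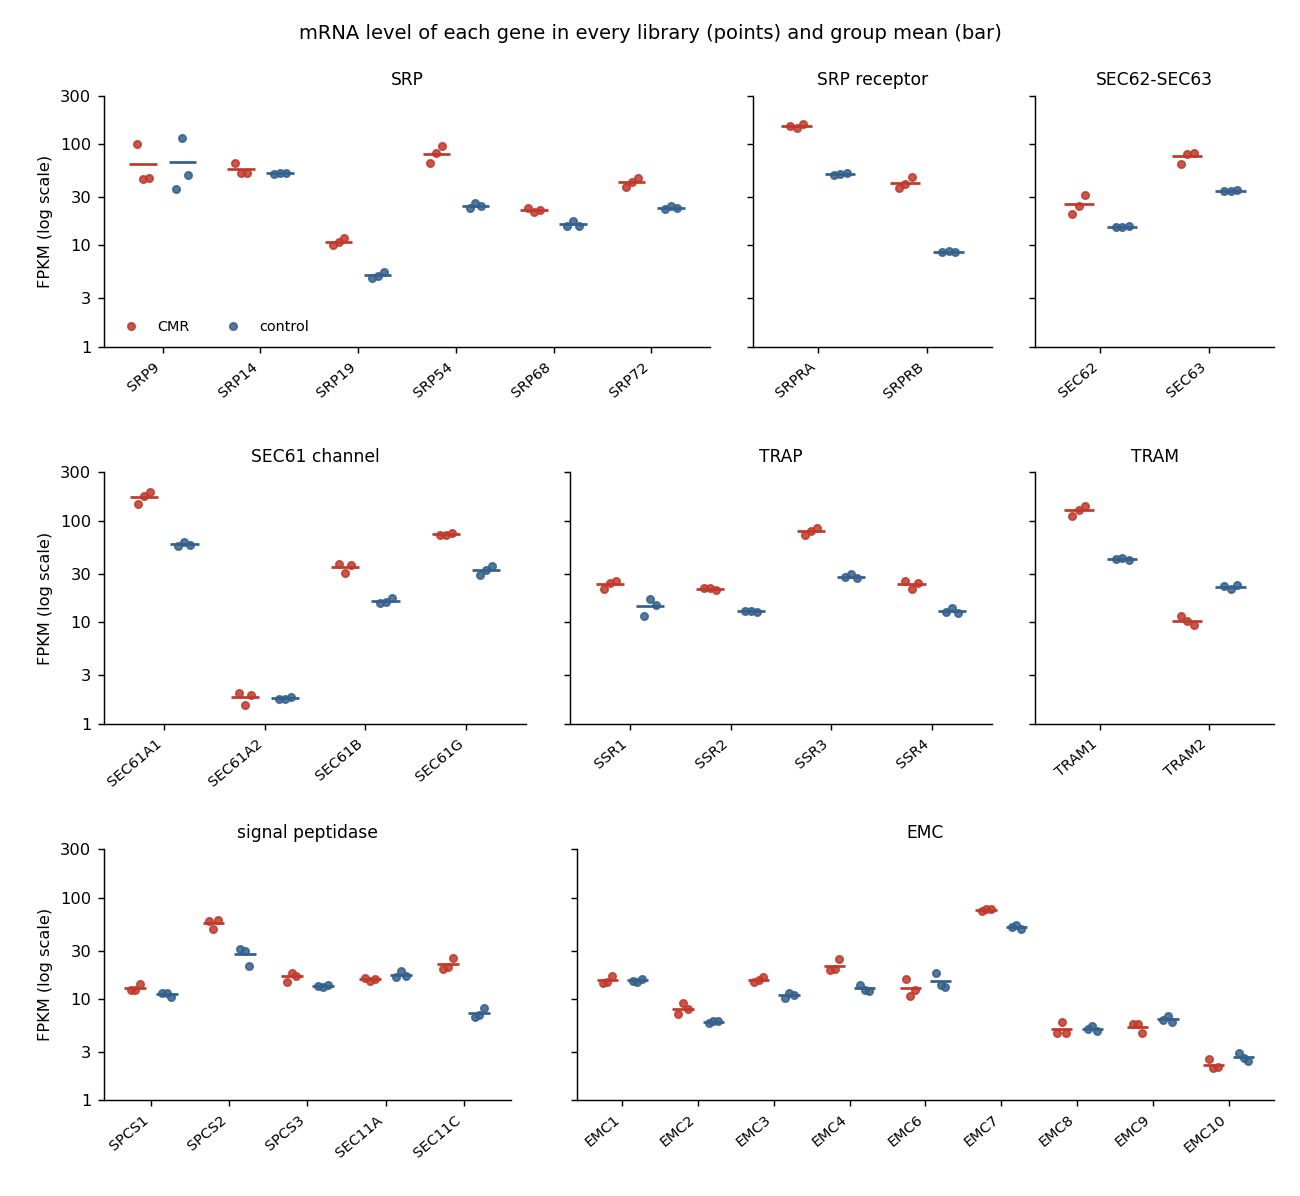
Level of each of the 34 genes in FPKM on a log axis, 1 panel per complex. Points are libraries (CMR red, control blue, 3 each) and bars are group means; CMR libraries lie above control for most genes, TRAM2 is the reverse, and SRP9 has 1 high library in each group.

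Of the 8 complexes, the SRP receptor had the highest median log2 fold change (1.99). SRPRA, the GTPase that meets SRP at the membrane (ENSG00000182934, GRCh38 chromosome 11, 126262938 to 126268982, minus strand), had 149, 145 and 159 FPKM in CMR libraries, against 49.6, 51.1 and 51.8 FPKM in control libraries. Each CMR value was above every control value, and the spread within a group was small beside the gap (log2 fold change 1.65 ± 0.07 SE, edgeR adjusted p = 4.28e-05). SRPRB, the membrane-spanning GTPase that anchors SRPRA (ENSG00000144867, chromosome 3, 133784033 to 133821492, plus strand), had 36.7, 40.7 and 47.1 FPKM with CMR and 8.61, 8.86 and 8.66 FPKM in control. Its control libraries were nearly equal, and its log2 fold change was 2.33 ± 0.12 (edgeR adjusted p = 5.2e-05). SRPRA remained the more abundant of the pair, by 3.64 times in mean FPKM with CMR and by 5.83 times in control. By mean level among the 34 genes, SRPRB was in place 13 with CMR and in place 27 in control.

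Of the 6 SRP genes, 4 rose, where 20.5% of all genes tested were called higher. SRP54, the GTPase that binds the signal sequence, had 64.8, 80.8 and 95.8 FPKM with CMR and 23.2, 26.0 and 24.8 FPKM in control (log2 fold change 1.79 ± 0.16, edgeR adjusted p = 0.000269). The CMR libraries of SRP54 differed among themselves more than the control libraries did, yet the lowest was more than 2-fold above the highest control library. SRP19, which helps SRP54 assemble on the SRP RNA, had 10.1, 10.8 and 11.9 FPKM with CMR and 4.76, 5.02 and 5.43 FPKM in control (log2 fold change 1.19 ± 0.11). Its span overlaps that of REEP5 on the other strand, which had 175% of its mean count and a log2 fold change of -0.33. Strand was not given for these counts, so reads in the shared stretch cannot be told apart. SRP68 and SRP72 form a pair that binds the RNA near SRP54. SRP68 had 23.6, 21.2 and 22.5 FPKM with CMR and 15.5, 17.5 and 15.7 FPKM in control (1.46-fold, edgeR adjusted p = 0.00221). SRP72 had 37.6, 42.0 and 46.6 FPKM with CMR and 22.9, 24.6 and 23.4 FPKM in control (1.88-fold, edgeR adjusted p = 0.000714). Neither gene had overlapping groups.

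The Alu-domain pair, SRP9 and SRP14, which slows translation while SRP is bound, was not called. SRP14 had 65.2, 51.5 and 51.8 FPKM with CMR and 51.1, 51.5 and 52.2 FPKM in control, where the groups overlap. In normalised counts (CPM with TMM factors) it had 156.8, 126.8 and 129.2 CPM with CMR and 118.8, 119.5 and 121.7 CPM in control, so each CMR library lay above each control library without passing the test (log2 fold change 0.20, 95% interval -0.04 to 0.44, edgeR adjusted p = 0.173). SRP9 had 100.5, 45.5 and 45.8 FPKM with CMR and 35.7, 114.9 and 49.6 FPKM in control. CMR replicate 1 and control replicate 2 were each more than 2-fold above the others of their group, so the groups overlap widely and the 95% interval of its log2 fold change ran from -1.12 to 1.13 (edgeR adjusted p = 0.992). Without these 2 libraries the log2 fold change of SRP9 was 0.19 ± 0.18 (edgeR adjusted p = 0.472), an alternative chosen after seeing the data. The processed pseudogene SRP9P1 had 314, 304 and 326 counts with CMR and 276, 262 and 346 counts in control, without a high value in those libraries.

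Of the 4 SEC61 genes, 3 rose, where 20.5% of all genes tested were called higher. SEC61A1, which forms the pore (ENSG00000058262, chromosome 3, 128051641 to 128071683, plus strand), had 147, 174 and 191 FPKM with CMR and 57.0, 62.4 and 58.1 FPKM in control. It had the highest mean level of all 34 genes in CMR libraries, and the log2 fold change was 1.61 ± 0.12 (edgeR adjusted p = 0.000143). The overlapping gene RUVBL1, on the other strand with 23.3% of its mean count, had a log2 fold change of -0.28. SEC61B, a small tail-anchored subunit, had 37.7, 30.7 and 36.3 FPKM with CMR and 15.6, 15.8 and 17.4 FPKM in control (2.26-fold, edgeR adjusted p = 0.00045). SEC61G, the small subunit that clamps the pore, had 71.9, 72.4 and 75.8 FPKM with CMR and 29.3, 32.4 and 35.7 FPKM in control (2.38-fold, edgeR adjusted p = 0.000197). For both small subunits the groups stayed apart. SEC61A2, the second gene for the pore subunit, was the least abundant of the 34 genes, with 2.02, 1.51 and 1.92 FPKM with CMR and 1.76, 1.74 and 1.83 FPKM in control. Its groups overlap (log2 fold change 0.11, 95% interval -0.27 to 0.49), and NUDT5, on the other strand across its span, had 483% of its mean count.

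SEC63, whose J domain recruits the chaperone BiP to the channel, rose 2.30-fold (edgeR adjusted p = 0.000391). Its levels were 63.8, 80.4 and 82.5 FPKM with CMR and 34.3, 34.5 and 35.5 FPKM in control. SEC62, its partner in the import of short and weakly hydrophobic signals, had 20.6, 24.3 and 31.5 FPKM with CMR and 15.1, 15.3 and 15.4 FPKM in control (1.76-fold, edgeR adjusted p = 0.00643). SEC62 is also known as a receptor for ER turnover in recovery from ER stress.

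All 4 TRAP genes rose, where 20.5% of all genes tested were called higher. SSR3, the gamma subunit, rose most, with 72.0, 80.0 and 85.7 FPKM with CMR and 27.9, 29.6 and 27.0 FPKM in control (2.97-fold, edgeR adjusted p = 8.31e-05). SSR4, the delta subunit, had 25.4, 21.2 and 24.3 FPKM with CMR and 12.6, 13.8 and 12.4 FPKM in control (1.93-fold, edgeR adjusted p = 0.000499). The gene IDH3G overlaps SSR4 on the other strand with 61.0% of its mean count, and had a log2 fold change of 0.01. SSR2, the beta subunit, showed the least spread, with 21.6, 21.5 and 20.7 FPKM with CMR and 13.0, 12.8 and 12.5 FPKM in control (1.76-fold). SSR1, the alpha subunit, had 21.2, 24.5 and 25.3 FPKM with CMR and 11.4, 17.1 and 14.6 FPKM in control, the widest control spread of the 4 (1.74-fold, edgeR adjusted p = 0.00647). SSR3 had the highest mean FPKM of the 4 in both groups.

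Promoters were searched for letters that stress factors are known to bind. The windows were the 250 bases before and 50 after each annotated start in RefSeq's table (GRCh38.p14), and 30 of the 34 genes had one (all but SRPRA, TRAM1, SPCS1 and EMC2). TGACGTGG, the core of the unfolded protein response element that XBP1 and ATF6 bind, was found on either strand in windows of 4 of those 30 genes (13.3%), against 0.927% of 27305 genes with a window. The 27305 genes are all that have a window, whether or not they were tested here, so these shares are not matched for expression. All 4 genes with the core rose with CMR, as did 20 of the 30. Stretches of 30 bases around each site are shown in the direction of the gene, with the motif, which reads as its reverse complement in all of them, in capitals:
SEC62 (chr3:169966779-169966808, plus strand): ccctcctcgctCCACGTCAgagggaaccgg
SRP19 (chr5:112861164-112861193, plus strand): aagtcttcatgCCACGTCAgagactagaga
SSR3 (chr3:156554148-156554177, minus strand): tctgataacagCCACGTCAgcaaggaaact
SSR4 (chrX:153794528-153794557, plus strand): tcagggaggggCCACGTCAgtgctgccaga
The motif begins 17 bases before the only start listed for SEC62 and 112 before that of SRP19. In SSR3 it lies 41 bases before 1 of 3 listed starts, and in SSR4 129 bases before 1 of 2. The ER stress element (CCAAT, 9 bases of any kind, CCACG), its variant (ATTGG, 1 base of any kind, CCACG) and the composite TGATGCAA of C/EBP and ATF factors were found in none of the 30 genes, and in 0.0916%, 0.0696% and 1.08% of all genes. With 1 mismatch allowed, the unfolded protein response core was found in 11 of the 30 genes, among them SRPRB, SEC61A1 and SEC11C, and in 20.2% of all genes. The composite was then found in 4 of the 30 (13.3%) and in 18.0% of all genes, the ER stress element in 1 (3.33%) and in 1.89%, and its variant in none and in 1.46%. The CCACG of both ER stress elements is also part of the reverse complement of that core. A match is a run of letters and not a shown binding site.

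**Figure D2:**
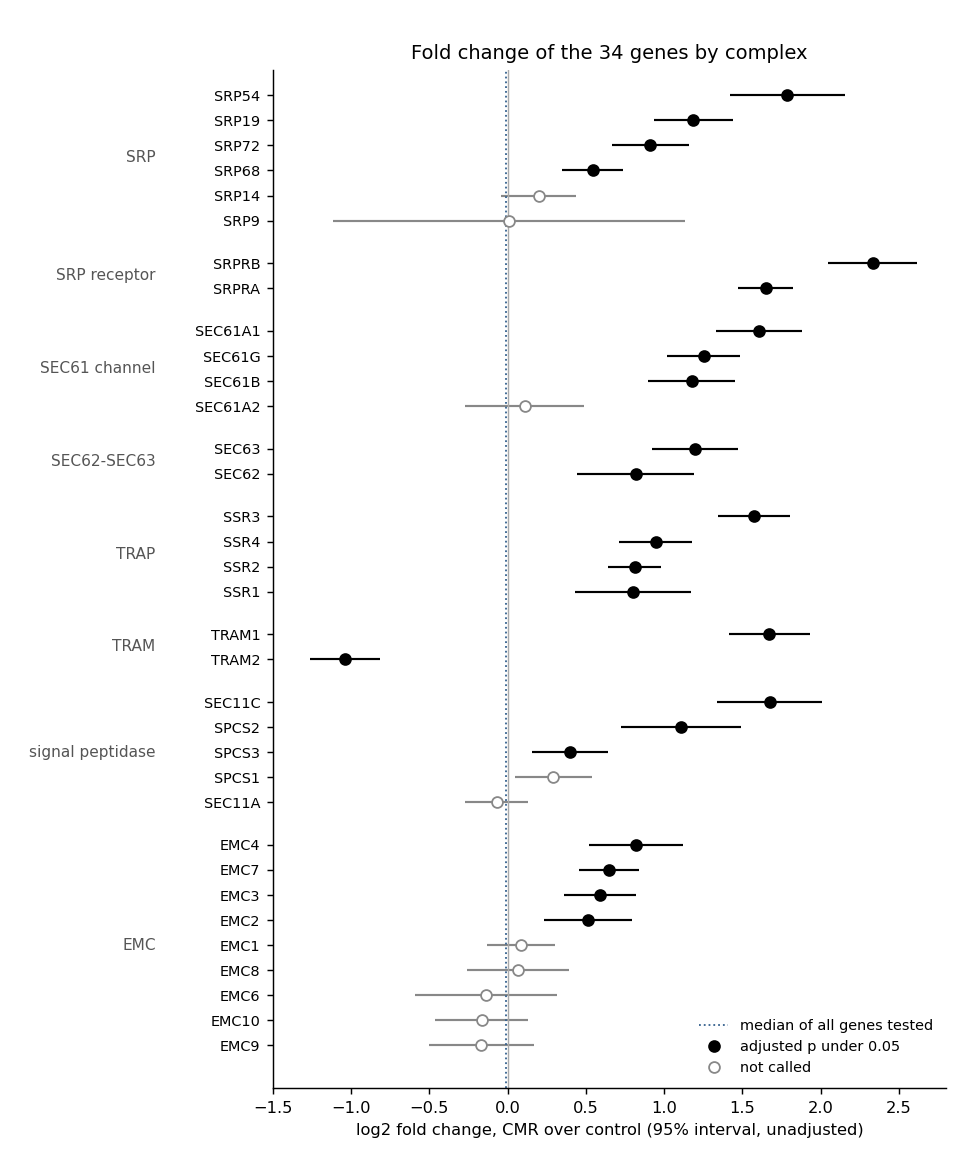
Log2 fold change of each of the 34 genes, CMR over control, by complex; whiskers are 95% intervals without adjustment for multiple tests. Filled points passed an adjusted p of 0.05; SRPRB lies highest at 2.33 and TRAM2 lowest at -1.04, and the dotted line is the median of all genes tested at -0.01.

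The TRAM paralogues went opposite ways. TRAM1, a multispanning protein next to the channel that helps chains with certain signals enter, had 110.5, 129 and 140.4 FPKM with CMR and 41.6, 43.1 and 41.1 FPKM in control (log2 fold change 1.67 ± 0.11, edgeR adjusted p = 9.97e-05). TRAM2, described mainly in the synthesis of type I collagen (ENSG00000065308, chromosome 6, 52497408 to 52577060, minus strand), had 11.6, 10.2 and 9.34 FPKM with CMR and 22.9, 21.2 and 23.3 FPKM in control. Every CMR library of TRAM2 was below every control library (log2 fold change -1.04 ± 0.10, edgeR adjusted p = 0.000314). The share of TRAM2 in the summed FPKM of the pair was 9.47, 7.33 and 6.24% with CMR and 35.5, 33.0 and 36.1% in control.

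Signal peptidase showed the other large difference between paralogues, in its catalytic subunit. SEC11C (ENSG00000166562, chromosome 18, 59139866 to 59158832, plus strand) had 19.8, 20.9 and 25.2 FPKM with CMR and 6.65, 6.92 and 8.22 FPKM in control (log2 fold change 1.67 ± 0.14, edgeR adjusted p = 0.000244). SEC11A, the alternative catalytic subunit, had 16.2, 15.1 and 15.6 FPKM with CMR and 16.4, 18.8 and 16.8 FPKM in control. All CMR libraries of SEC11A were below the control libraries in FPKM, while its normalised counts overlapped between groups (log2 fold change -0.07, 95% interval -0.27 to 0.13, edgeR adjusted p = 0.558). SEC11C thus made up 55.0, 58.0 and 61.8% of the summed FPKM of the pair with CMR and 28.8, 26.9 and 32.9% in control, a difference of 28.7 percentage points. In FPKM, SEC11C was above SEC11A in each CMR library and below it in each control library. In CMR replicate 1 that order rests on the gene lengths used: undivided by length, SEC11C had 6469 counts and SEC11A 7068 counts there.

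Of the 3 accessory subunits of signal peptidase, SPCS2 and SPCS3 rose, where 20.5% of all genes tested were called higher. SPCS2 had 59.1, 49.5 and 59.9 FPKM with CMR and 31.4, 29.9 and 21.1 FPKM in control (2.16-fold, edgeR adjusted p = 0.00189). Its processed pseudogene SPCS2P4 had 18.5% of its mean count, with 1788, 3369 and 1949 counts with CMR and 568, 1006 and 1836 counts in control, and how reads of such copies were assigned was not stated. With both added together, chosen after seeing the data, the log2 fold change was 1.07 ± 0.10 (edgeR adjusted p = 0.0003). SPCS3, whose yeast counterpart is essential for cleavage, rose by the small fold of 1.32 (14.8, 18.2 and 17.0 FPKM with CMR against 13.3, 13.1 and 13.6 FPKM in control, edgeR adjusted p = 0.0204). That call was lost when CMR replicate 2 or any 1 of the control libraries was left out (edgeR adjusted p = 0.0673 without CMR replicate 2, and 0.0691, 0.0738 and 0.0549 without control replicates 1, 2 and 3), and under upper-quartile scaling (0.067). SPCS1, a small accessory subunit, had 12.1, 12.3 and 14.2 FPKM with CMR and 11.5, 11.4 and 10.5 FPKM in control and was not called (log2 fold change 0.29, 95% interval 0.04 to 0.54, edgeR adjusted p = 0.0649). Without CMR replicate 1 it was called (edgeR adjusted p = 0.0448). GLT8D1, on the other strand, had 42.9% of the mean count of SPCS1.

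Shares within 4 pairs of paralogues were compared with an exact two-sided permutation test over the 6 libraries, which cannot give a p below 0.1. The shares of SEC11C, TRAM2 and SEC61A2 each separated the groups completely and reached that smallest p of 0.1 (0.133 adjusted over the 4 pairs). The share of SEC61A2 in the SEC61A pair was 1.07 ± 0.25% with CMR and 2.92 ± 0.18% in control as a mean over 3 libraries (± SD). EMC9 made up 55.2, 48.8 and 50.2% of the EMC8 and EMC9 pair with CMR and 54.6, 55.9 and 55.4% in control, and these groups overlap (exact permutation p = 0.2). No pair can pass an adjusted p of 0.05 in this design.

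**Figure D3:**
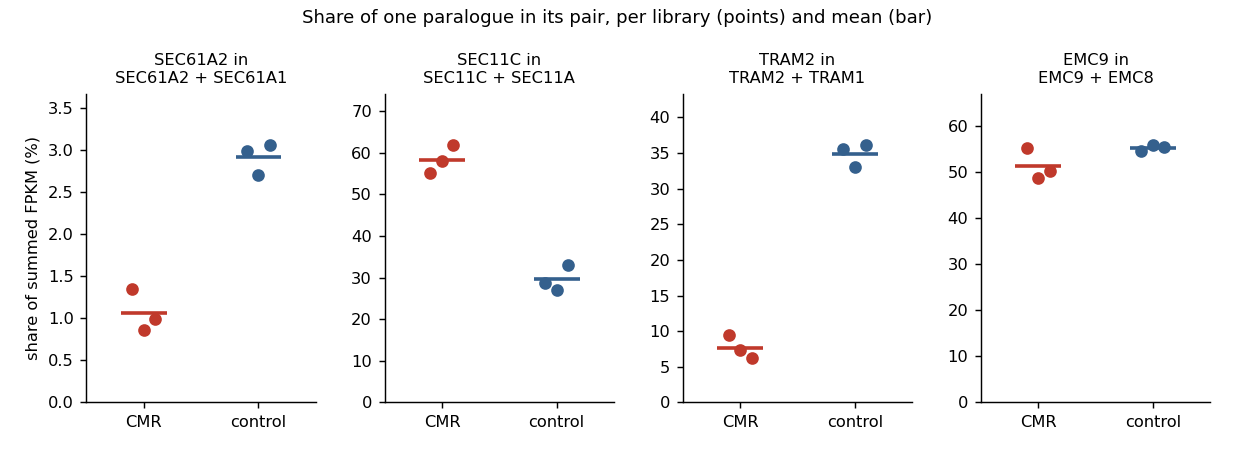
Share of 1 paralogue in the summed FPKM of its pair, in percent, per library (points) and as the mean (bar), CMR left of control in each panel. The share of SEC11C is higher with CMR (58.3% against 29.5% on average), that of TRAM2 lower (7.68% against 34.9%), and the EMC9 shares overlap.

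The EMC had the lowest median log2 fold change of the 8 complexes (0.09). Of its 9 genes here, 4 rose by 1.43 to 1.76-fold (44.4%) and none fell, and none reached 2-fold. The shares of all genes tested were 20.5% higher and 18.1% lower. MMGT1, which encodes a further EMC subunit, is not among the 9 and rose 1.33-fold. EMC4, a membrane subunit, had 19.4, 19.6 and 24.6 FPKM with CMR and 13.7, 12.3 and 12.1 FPKM in control (edgeR adjusted p = 0.00239). EMC7, a lumenal subunit, was the most abundant, with 74.0, 76.5 and 77.7 FPKM with CMR and 50.9, 53.6 and 49.2 FPKM in control (edgeR adjusted p = 0.00101). EMC3, one side of the insertase core and related to the Oxa1 family, rose 1.51-fold, with 14.6, 15.3 and 16.4 FPKM with CMR and 10.2, 11.4 and 10.9 FPKM in control. EMC2, the cytosolic scaffold, had 7.08, 9.02 and 8.01 FPKM with CMR and 5.74, 6.03 and 6.04 FPKM in control. Its rise of 1.43-fold passed the test (edgeR adjusted p = 0.0129), a call lost without control replicate 1 (edgeR adjusted p = 0.0536). EMC6, the other side of the insertase core, had 15.6, 10.8 and 12.1 FPKM with CMR and 18.0, 13.6 and 13.0 FPKM in control, and its groups overlap (log2 fold change -0.14, 95% interval -0.59 to 0.32). P2RX5-TAX1BP3 overlaps EMC6 on the other strand with 14.2% of its mean count.

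The lumenal subunits EMC1 and EMC10 and the alternative cytosolic subunits EMC8 and EMC9 had log2 fold changes between -0.17 and 0.09 (edgeR adjusted p of 0.341 or more). EMC1 had 14.5, 14.7 and 16.7 FPKM with CMR and 15.2, 14.6 and 15.9 FPKM in control, and EMC10 had 2.54, 2.08 and 2.14 FPKM with CMR and 2.96, 2.60 and 2.44 FPKM in control. Both genes had overlapping groups. EMC8 had 4.61, 5.89 and 4.63 FPKM with CMR and 5.11, 5.38 and 4.78 FPKM in control, which overlap. EMC9 had 5.69, 5.61 and 4.66 FPKM with CMR and 6.14, 6.82 and 5.94 FPKM in control, so each CMR library was below each control library without passing the test. The widest of these 4 intervals was that of EMC9, from -0.50 to 0.17. COX4I1 overlaps EMC8 with 480% of its mean count and PSME1 overlaps EMC9 with 351%, both on the other strand.

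Summed over the genes of a complex, levels with CMR lay above those in control in all 8 complexes, without overlap. Of single genes tested, 53.9% had no overlap of the groups in normalised counts. A sum follows its most abundant genes and does not show that each gene rose. EMC7 alone had means of 76.1 FPKM with CMR and 51.2 FPKM in control, while 5 of the 9 EMC genes were not called. The TRAM sum rose with TRAM1 although TRAM2 fell. The receptor pair summed to 186 to 206 FPKM with CMR and 58.2 to 60.4 FPKM in control, the SEC61 channel to 259 to 305 against 104 to 113, TRAP to 140.3 to 156 against 64.9 to 73.3, signal peptidase to 116 to 132 against 70.2 to 80.0, and the EMC to 158 to 167 against 120.2 to 128. The SRP sum was 252 to 302 FPKM with CMR and 153 to 239.5 FPKM in control, and the highest control sum was that of control replicate 2, where SRP9 was high. The gap between the most and least abundant gene was 93.9 times in the channel with CMR and 33.3 times in control, in both cases SEC61A1 over SEC61A2. The length behind FPKM was, for most genes, in a common ratio (median 1.19) to the bases that any annotated transcript of a gene covers. Those bases number 10517 for SRP19 and 10748 for EMC10 but 769 for EMC6. A low level of a gene with long annotated variants may therefore be understated.

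The CMR libraries were not alike. Of the 23 genes that rose, CMR replicate 1 had the lowest normalised count of the 3 CMR libraries in 17 (73.9%) and CMR replicate 3 the highest in 17 (73.9%). Over all 3928 genes called higher the shares were 59.3% and 68.3%. Leaving out each library in turn gave 21 to 24 of the 34 genes higher and always 1 lower.

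In 4 lists of pathway partners outside the 34 genes, more genes were called higher than lower. These lists were chosen with earlier results of these data known. Of all genes tested, 20.5% were higher and 18.1% lower. The medians of these lists, 0.30 to 0.62, lay below those of the receptor (1.99) and the channel (1.21). They spanned those of signal peptidase (0.40) and the TRAM pair (0.32) and lay above that of the EMC (0.09). Of 7 genes for the insertion of tail-anchored proteins, 5 were called higher and 1 lower (median log2 fold change 0.40). CAMLG, part of the ER receptor for such proteins, had 25.4, 29.2 and 40.5 FPKM with CMR and 10.4, 10.3 and 8.59 FPKM in control (3.43-fold, edgeR adjusted p = 0.000647), the cochaperone gene SGTA rose 1.49-fold, and UBL4A, of the BAG6 complex, was 1.53-fold lower. The count of those called higher was 3 under upper-quartile scaling or without a composition factor and 2 to 5 when 1 library was left out, with 3 without control replicate 1 or 2 and 2 without control replicate 3. Of 8 genes of the translocon for multispanning proteins, 4 rose and none fell (median 0.30). TMCO1, an insertase related to EMC3, had 44.6, 50.3 and 68.7 FPKM with CMR and 18.0, 17.8 and 13.9 FPKM in control (3.48-fold, edgeR adjusted p = 0.00055). CCDC47 and WDR83OS, partners in a chaperone for membrane segments, rose 2.16-fold and 2.12-fold. The call of WDR83OS was lost without CMR replicate 1 or 3 (edgeR adjusted p = 0.0799 and 0.0783) and without control replicate 1 or 3 (0.0915 and 0.0843). NOMO1, NOMO2 and NOMO3 of that list are near-identical copies whose counts are uncertain. NOMO2 was 1 of the 4 genes that rose (1.31-fold, edgeR adjusted p = 0.00574).

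Oligosaccharyltransferase, which attaches N-glycans beside the channel, had 7 of 12 genes higher and none lower (median 0.55), or 4 higher without control replicate 2. The 12 include TUSC3, near the floor with 0, 21 and 11 counts with CMR and 16, 0 and 0 counts in control. Among all genes tested 20.5% were higher and 18.1% lower. OSTC, which sits next to SEC61, rose 2.31-fold, the core subunit RPN1 1.86-fold (146, 132.3 and 132.2 FPKM with CMR against 78.9, 77.7 and 76.5 FPKM in control) and DAD1 1.71-fold. Of 8 further targeting and channel partners, 5 were higher and 1 lower (median 0.62), with none lower without control replicate 2. DNAJC1, an ER J-domain protein gene, rose 2.35-fold, HM13, the protease that clears cleaved signal peptides, 2.25-fold and the ribosome-binding protein gene RRBP1 2.20-fold. The gene that fell was KTN1, which encodes the ER protein kinectin, at 19.8, 30.2 and 24.3 FPKM with CMR and 39.4, 41.9 and 40.2 FPKM in control. MMGT1, which encodes the fifth EMC subunit, was in this list and rose 1.33-fold.

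Import into mitochondria, a list also chosen with earlier results of these data known, served as a like machinery of another organelle. Of 23 matched genes of the TOM and TIM complexes and their partners, 7 were called higher and 4 lower (30.4% and 17.4%). Of all genes tested, 20.5% were higher and 18.1% lower. The median log2 fold change of the list was 0.01. None of its genes passed 2-fold, where 9.87% of all genes were called at least 2-fold higher and 8.55% at least 2-fold lower. The symbol TOMM40, also listed, was not found, so that gene was not analysed. Whether it stands under another name was not checked. The count called lower was 1 to 4 when 1 library was left out: 2 without CMR replicate 2, 2 without control replicate 1, 1 without control replicate 2 and 2 without control replicate 3. DNAJC19 and TIMM44, of the import motor, rose 1.87-fold and 1.66-fold, while TIMM8B, a small chaperone of the space between the membranes, was 1.82-fold lower, a call lost without any 1 of the CMR libraries (edgeR adjusted p of 0.055 to 0.075) and without control replicates 2 and 3 (0.0827 and 0.0773). The difference between this list and the ER genes is given as counts and medians, with no test.

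**Figure D4:**
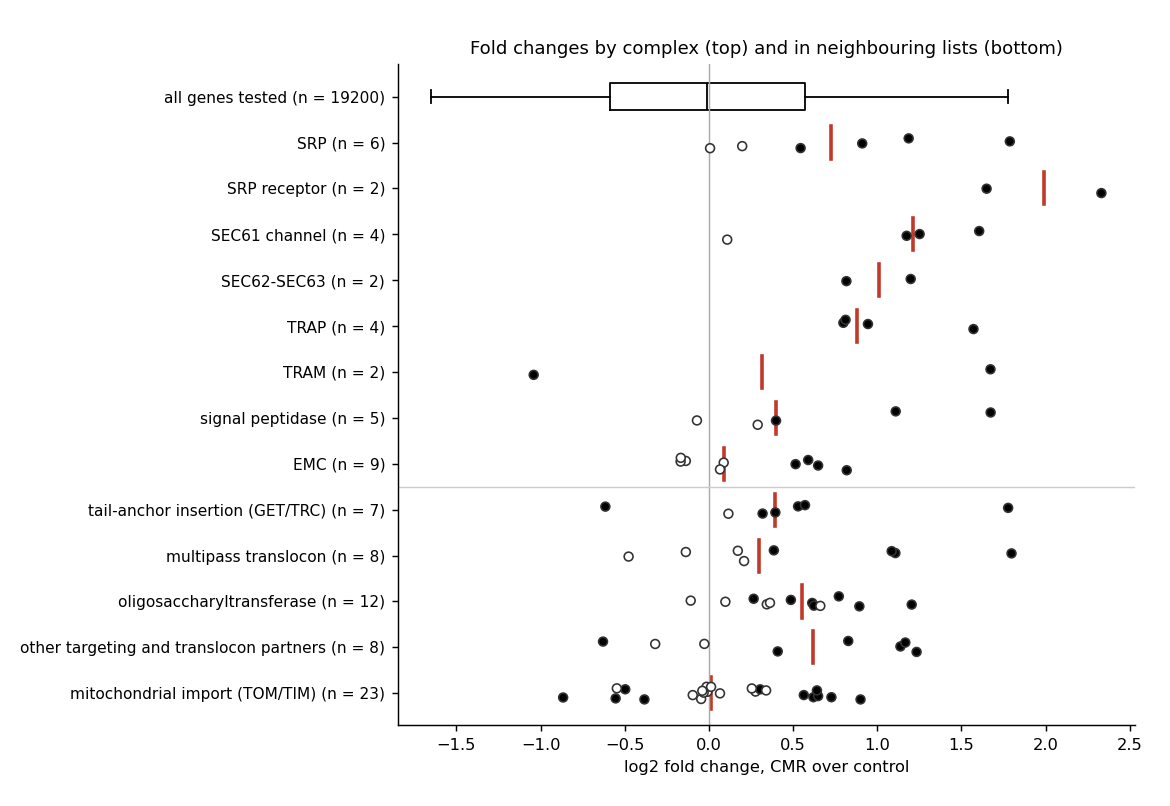
Log2 fold change, CMR over control, of genes by complex (upper rows) and in neighbouring lists (lower rows); filled points passed an adjusted p of 0.05, red bars are list medians, and the box shows the 25th to 75th and the whiskers the 5th to 95th percentiles of all 19200 genes. The receptor, channel and TRAP genes lie mostly right of the box, the EMC reaches from inside it to 0.82, and the mitochondrial list centres at 0.01.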

How the data were processed

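Poly(A)-selected RNA of 6 PANC-1 libraries was sequenced as paired ends, per the labels' protocols. The authors deposited whole-number counts and FPKM values per gene, per the file headers. HISAT2 2.0, StringTie 1.3.0, Bowtie 0.12.2 and a mouse build are named in the submitters' processing notes. The gene identifiers are human, and all 34 spans overlap the same identifier and strand in GENCODE 29, so coordinates were read as GRCh38. The length implied by the deposited counts and FPKM values was proportional to the union of annotated exons for most genes. The median ratio was 1.19, and 92.1% of 11755 genes were within 5% of it. How fragments were counted, and with what strand setting, is not given in the sources used here.

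Counts were tested with edgeR 4.0.16 in R 4.3.3: TMM scaling, filterByExpr (minimum count 10, minimum total 15), quasi-likelihood fit of 3 against 3 libraries, and Benjamini-Hochberg adjustment over 19200 genes. Standard errors are the log2 fold change over the root of the F statistic, and 95% intervals use the fit's degrees of freedom. The code was tested on simulated data. Normalised counts are CPM with the same factors. Levels between genes were compared in deposited FPKM only. The genes named are all 34 members, up to 3 called genes per neighbouring list with the largest change, and cell type markers. MMGT1, KTN1, TUSC3, the NOMO genes, overlapping genes and pseudogenes were added after their values were seen. Not every overlapping gene is reported here. The members and lists were chosen with earlier results of these data known. Alternatives were DESeq2 1.42.0, limma 3.58.1 on log2(FPKM + 1) and log2(FPKM + 0.1), other scalings and filters, the replicate block and omission of libraries. The number of libraries, 3 per group, limits precision. Figures used matplotlib 3.10.9.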

Additional observations from a re-analysis of the deposited data

How the results depend on the processing

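The count of 23 members higher and 1 lower kept within 1.5 times under every alternative run (21 to 24 higher, 1 lower), and all called members kept their direction. With upper-quartile scaling the median over all genes was -0.14 (log2) and that over the 34 genes 0.68. Signs turned only in genes that were not called. SRP9 was -0.12 with upper-quartile scaling, -0.057 without a composition factor, -0.036 among genes of at least 1 FPKM and -0.46 to 0.65 with 1 library left out. EMC8 was -0.064 with upper-quartile scaling, -0.007 without a composition factor, -0.016 and -0.020 with limma on log2(FPKM + 1) and log2(FPKM + 0.1), and -0.062 to 0.134 with 1 library left out. SEC61A2 was -0.020 and EMC1 -0.043 with upper-quartile scaling, and EMC6 ran from -0.288 to 0.023 with 1 library left out. The cause was not tested.

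Tail-anchor genes called higher were 3 with upper-quartile scaling, 3 without a composition factor, 2 to 5 with 1 library left out and 3 without the pair of libraries high in SRP9, an alternative chosen after seeing the data. Multipass translocon genes called lower were 1 with upper-quartile scaling, 0 to 1 with 1 library left out and 1 without that pair. Oligosaccharyltransferase genes called higher were 4 to 6 with 1 library left out and 4 without that pair. Other partners called lower were 0 to 1, and mitochondrial import genes called lower were 1 to 4 with 1 library left out and 2 without that pair. With 1 mismatch allowed, members with ERSE were 1, with the UPRE core 11 and with the C/EBP-ATF composite 4, against 1.89%, 20.2% and 18.0% of all genes.

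Same-numbered libraries deviated together only weakly (correlations of 0.034, 0.044 and 0.052), though each library correlated best with its own number. The replicate block kept 23 members higher and 1 lower, with 6737 genes called in all against 7404 without it, and no call of a member changed; outside the members, the call of WDR83OS was lost (edgeR adjusted p = 0.0774). Left-out libraries turned no difference in paralogue shares. Of the 34 genes SEC61A2 had the fewest counts on average, 497 to 631 with CMR and 419 to 552 in control. In CMR replicate 3 EMC9 had fewer (608 counts against 618).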
